A study of Arabidopsis thaliana with 3 samples.

Results

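The root cap maturation genes are 7 loci chosen by name for their known roles in the cap: FEZ (AT1G26870), SMB (AT1G79580), BRN1 (AT1G33280), BRN2 (AT4G10350), BFN1 (AT1G11190), RCPG (AT1G65570) and CEL5 (AT1G22880). All 7 were found among the 33446 genes of the deposited root table. RNA came from roots of 14-day-old Arabidopsis thaliana seedlings of the Col-0 ecotype, all labelled as expressing the INTACT transgene. From 1 plasmid and the constitutive 35S promoter, it makes a WPP domain for the nuclear envelope, fused to GFP and to a tag that the plant itself biotinylates. The plants were grown in long days on vertical agar plates and sequenced as 3 libraries of this single condition. No control roots lacking the construct were analysed here. Several independent single-copy homozygous lines were made, and which of them gave the RNA is not given in the sources used here. The table holds 1 value per gene for the 3 libraries together, in RPKM (counted reads scaled to gene length and to library size). No value therefore has a replicate error, no difference below could be set against the spread between plants, and no test between groups was possible. Intervals given below are 95% intervals that cover counting error only.

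The root cap is the sheath of cells that covers the root tip, senses gravity and protects the meristem. It is renewed from stem cells at its base while its oldest cells are lost at the surface, by separation of living layers at the tip and by programmed cell death along the flank. A small set of NAC transcription factors orders this turnover. FEZ promotes the divisions of the cap stem cells and activates SMB, which represses FEZ in the daughter cells and drives their maturation. BRN1 and BRN2 act with SMB in late maturation and in the release of cap cells. RCPG, a polygalacturonase that cuts pectin, and CEL5, a cellulase, loosen the walls of cells that leave the cap, and the nuclease BFN1 degrades RNA and DNA in dying cells.

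Several listed names needed care. BRN1 was listed under its alias ANAC015, CEL5 as ATCEL5 and RCPG by its locus. The name BRN2 is shared with AT1G03457, a Bruno-like RNA-binding protein gene that was listed by its own locus at 5.28 RPKM, so the row named BRN2 was read as AT4G10350. The name SMB differs only by case from smB (AT4G20440), a small nuclear ribonucleoprotein gene. The table kept the case of names, with 230 names that begin with a lower-case letter, and the row was read as AT1G79580 from its capitals. No listed name was matched to AT4G20440, so the values of SMB and BRN2 rest on these readings. Chromosome 1 of TAIR10.1 holds 6 of the 7 genes and BRN2 lies on chromosome 4.

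The upstream regions of BRN1 and BRN2 are shown first because they hold the longest shared run among the upstream windows of the 4 NAC members. A local alignment of the 250 bases upstream of each annotated gene start joined 82 columns, of which 70 were identical (85.4%) and 3 held gaps. The stretch lay 126 to 48 bases upstream of BRN1 and 125 to 44 bases upstream of BRN2. Capitals mark the bases that are identical in the alignment, and both stretches are read 5′ to 3′ on the strand of the gene from the TAIR10.1 sequence.
BRN1, chr1:12072485-12072563, plus strand: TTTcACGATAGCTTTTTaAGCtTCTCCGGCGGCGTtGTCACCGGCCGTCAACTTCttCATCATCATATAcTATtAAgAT
BRN2, chr4:6417005-6417086, minus strand: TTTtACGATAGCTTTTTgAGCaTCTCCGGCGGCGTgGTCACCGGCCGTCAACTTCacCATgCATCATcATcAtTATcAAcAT
The longest run shared without a mismatch was 19 bases. In the other 5 pairs of NAC members the longest shared run of these windows was 8 to 10 bases. The alignment was chosen after the windows had been seen, and it describes the sequences only.

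The upstream window of RCPG is shown because BRN1 is known to bind the promoter of this gene. Capitals mark the letters CACG on either strand, a core found in many sites of NAC factors, over the 250 bases before the annotated start.
RCPG, chr1:24375896-24376145, minus strand: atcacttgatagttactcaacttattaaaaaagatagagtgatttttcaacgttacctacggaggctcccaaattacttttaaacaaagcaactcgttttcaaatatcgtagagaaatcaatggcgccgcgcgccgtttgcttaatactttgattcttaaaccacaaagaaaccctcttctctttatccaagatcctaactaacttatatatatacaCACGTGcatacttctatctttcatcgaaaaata
RCPG held 2 matches, beginning 33 and 31 bases upstream of the start, which overlap in the palindrome CACGTG, the G-box bound by other families of factors. BRN1 had 3 matches, BRN2 had 2, BFN1 and FEZ had 1 each, and these letters were not in the windows of SMB and CEL5. In the BRN1 and BRN2 stretches above, the matches lay 123 bases upstream of BRN1 and 93 bases upstream of BRN2, at columns that are not aligned with each other. Of 27443 windows upstream of protein-coding genes, 45.6% held the letters CACG, against 5 of the 7 members. The longer SNBE motif of the related vascular factors was found in 42.6% of all windows and also in 5 of the 7 members, with 3 matches upstream of RCPG and none upstream of BRN1 or SMB. A match of letters is not evidence of binding.

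All 7 genes had RPKM > 1, the level above which genes were called expressed. Over all listed genes, 56.0% passed this level, as did 68.5% of the 26549 protein-coding genes. At 0.5 RPKM all 7 passed, beside 59.6% of listed genes, and at 2 RPKM 6 passed, beside 50.9%. The median of the 7 genes was 10.1 RPKM, beside 2.21 RPKM over all listed genes, 4.88 RPKM over protein-coding genes and 10.5 RPKM over genes above 1. In RNA of whole roots, a low value can come from few cap cells or from little RNA in each, which cannot be told apart. The 7 levels spanned 19.5-fold between BFN1 and FEZ. The highest gene of the table had 4958 RPKM.

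**Figure D1:**
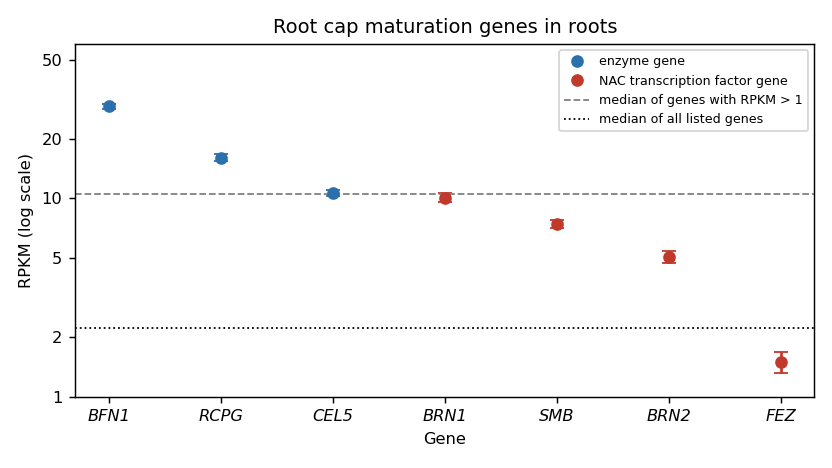
Level of each root cap maturation gene in roots, in RPKM on a log scale, ordered from the highest to the lowest. Points are the deposited single values, bars are 95% intervals of counting error, and lines mark the medians over all listed genes (2.21) and over genes above 1 RPKM (10.5). The points of the 3 enzyme genes stand above the dashed line and those of the 4 NAC genes below it. CEL5 and BRN1 are closest to the line, and the intervals of both cross it.

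Among the regulators, FEZ had the lowest level. FEZ (chromosome 1, 9312936 to 9315122, plus strand) was listed at 1.49 RPKM, rank 17862, with an interval of 1.32 to 1.69 RPKM. This is the only member below the median of all listed genes, and its interval lies above 1. It rests on about 264 reads, the fewest of the 7. SMB (chromosome 1, 29940803 to 29943713, minus strand), which acts after FEZ, was listed at 7.41 RPKM with an interval of 7.08 to 7.76 RPKM. The ratio of SMB to FEZ was 4.96 (4.35 to 5.65), and 7.88 when reads were divided by the coding length. In whole roots the RNA of the repressor thus stood above that of the gene it represses, with no information on which cells held either.

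BRN1 and BRN2 are close paralogs with overlapping roles, yet their levels were not equal. BRN1 (chromosome 1, 12072611 to 12073965, plus strand) was listed at 10.1 RPKM with an interval of 9.54 to 10.6 RPKM, the highest of the 4 NAC members as deposited. BRN2 (chromosome 4, 6415120 to 6416961, minus strand) was listed at 5.07 RPKM with an interval of 4.73 to 5.42 RPKM. The ratio of BRN1 to BRN2 was 1.99 (1.82 to 2.17). As deposited, SMB lay between them, with 1.36 (1.27 to 1.46) for BRN1 over SMB and 1.46 (1.35 to 1.59) for SMB over BRN2. By the coding length the order of BRN1 and SMB turned round, with BRN1 at 12.9 RPKM and SMB at 13.9 RPKM.

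Reads of the paralogs could be told apart by sequence. The coding regions of BRN1 and BRN2 were identical at 82.3% of 886 aligned bases, while the other pairs of NAC members lay between 63.1% and 69.9%. The longest coding run that BRN1 and BRN2 share is shown because it is the limit on reads common to both.
Shared by BRN1 (coding bases 98 to 121) and BRN2 (101 to 124): aaaagtttgagatggaagtcatca
This run of 24 bases is shorter than the reads of 61 bases. For all 7 members, every window of 61 bases within an exon occurred at 1 place in TAIR10.1. Reads across exon junctions were not checked.

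The 3 enzyme genes were listed above the NAC genes, with summed levels of 55.8 RPKM for the enzymes and 24.0 RPKM for the NAC members, a ratio of 2.32. Of the enzyme sum, 29.1 RPKM came from BFN1 alone, which also marks cell death outside the cap, as set out below. BFN1 (chromosome 1, 3750066 to 3752780, minus strand) was the highest of the 7 at 29.1 RPKM, with an interval of 28.3 to 30.01 RPKM and rank 4090, within the highest 12.2% of listed genes. RCPG (chromosome 1, 24373874 to 24375895, minus strand) followed at 16.05 RPKM with an interval of 15.5 to 16.7 RPKM and rank 6990. CEL5 (chromosome 1, 8095449 to 8097790, plus strand) was listed at 10.6 RPKM with an interval of 10.3 to 11.1 RPKM and rank 9255. BFN1 was 1.82 (1.73 to 1.90) times RCPG and 2.74 (2.61 to 2.87) times CEL5. Of the wall enzymes, RCPG was 1.51 (1.43 to 1.59) times CEL5.

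Of the 6 neighbouring pairs in the order of levels, 5 had counting intervals that leave out equal levels. The exception was CEL5 over BRN1, with a ratio of 1.06 (0.992 to 1.13). The lowest enzyme gene and the highest NAC gene could thus not be told apart by counting, and the order of the other neighbours has no check against the spread between plants. RPKM also depends on the gene length used. With the coding length, BRN1 and SMB changed places and the order of the other 5 genes did not change. SMB has 5 annotated transcripts and 1116 coding bases within 2099 bases of merged exon, so it moved most. With the longest transcript of each gene, all 7 kept their places.

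**Figure D2:**
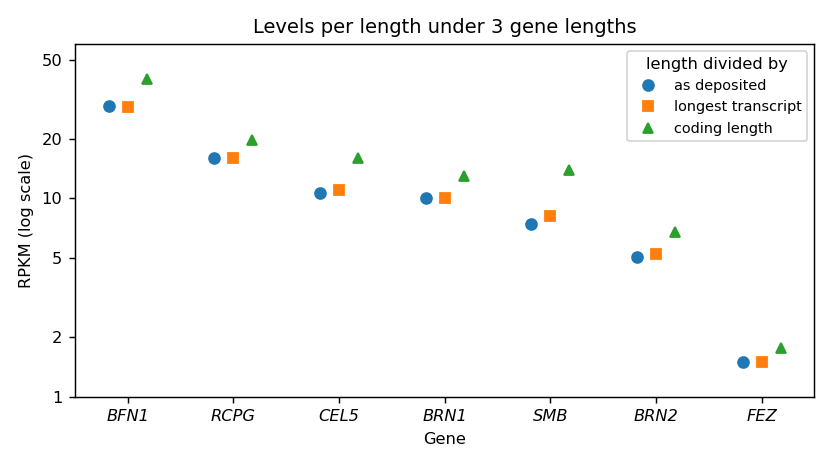
Levels of the 7 genes, in RPKM on a log scale, as deposited (circles), after dividing by the length of the longest annotated transcript (squares) and by the coding length (triangles). SMB shows the widest gap between symbols, from 7.41 as deposited to 13.9 by coding length, and there it lies above BRN1 at 12.9.

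Among the NAC genes found by annotation, BRN1, SMB and BRN2 stood above the median and FEZ stood below it. The set held the 109 matched genes whose annotated product, symbol or listed name marked them as NAC genes. Names not matched to a locus and NAC genes annotated otherwise were left out, so the shares and ranks are those of this set. It includes AT5G52380 (15.1 RPKM), whose annotated product carries the name of the vascular factor VND6, a gene listed at another locus. Of the 109 genes, 63.3% had RPKM > 1 and 15 were listed at 0. The median was 2.74 RPKM, and of the members only BRN1 passed the upper quartile of 8.25 RPKM. BRN1 ranked 25 of 109, SMB 33, BRN2 42 and FEZ 65. The highest was NAC083 at 146.6 RPKM. The genes directly around BRN1 were ANAC051 (10.9 RPKM) and ANAC038 (9.91 RPKM). SMB stood between ANAC013 (7.43 RPKM) and AT3G12977 (7.23 RPKM). BRN2 stood between ANAC104 (5.12 RPKM) and ANAC073 (4.95 RPKM), and FEZ between ANAC020 (1.56 RPKM) and VND1 (1.47 RPKM). Nearness in level says nothing of shared cells.

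**Figure D3:**
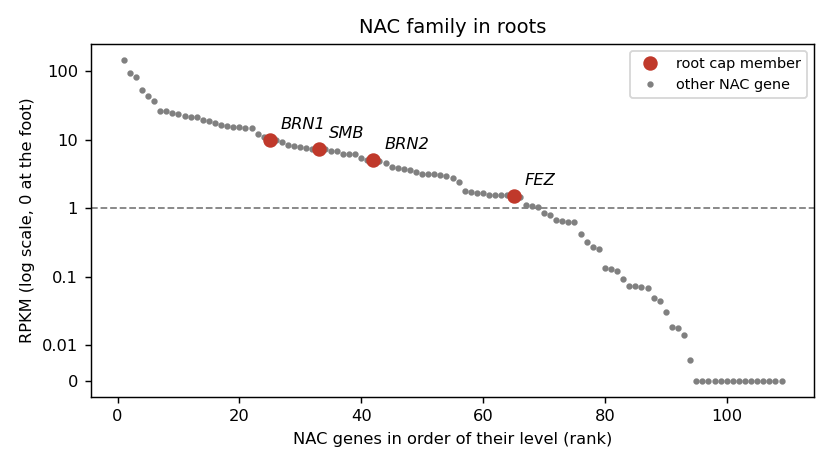
Levels of the 109 NAC genes found by annotation, in order of rank and in RPKM on a log scale. Genes listed at 0 are drawn at the foot. Large points are the root cap members, at ranks 25, 33, 42 and 65, and the dashed line marks 1 RPKM.

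SMB, BRN1 and BRN2 belong to a subfamily with the VND and NST factors, which switch on secondary walls in vessels and fibers. The cap genes were the 3 highest of the 13 genes of this group. Of the 10 relatives, 7 had RPKM > 1, near the 63.3% of the NAC genes found by annotation, and their median was 1.57 RPKM. The highest of them was VND3 at 3.96 RPKM, so that BRN2, the lowest cap gene of the group, was 1.28 (1.15 to 1.42) times VND3 and BRN1 was 2.54 (2.31 to 2.79) times it. VND6 and VND7, regulators of xylem vessels, both had 1.58 RPKM. NST1, which acts in fiber walls, had 0.0916 RPKM, and NST2 and NST3 were listed at 0.

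The enzyme members were set beside chosen relatives, not whole families. RCPG was the highest of the 8 polygalacturonase genes examined, at 1.95 (1.83 to 2.07) times QRT2 (8.23 RPKM), a gene of pollen separation. Of the 7 relatives, 3 had RPKM > 1, beside 68.5% of protein-coding genes, and the median was 0.538 RPKM. ADPG1, which opens fruits, was listed at 0, and ADPG2, which acts in organ shedding, had 0.376 RPKM. CEL5 ranked 9 of the 15 cellulase genes examined. KOR1, a membrane-bound cellulase needed for cellulose synthesis throughout the plant, had 205.1 RPKM. Of the 14 relatives, 12 were above 1 RPKM, beside the same 68.5% of protein-coding genes. CEL3, also known from the root cap, had 4.55 RPKM, and CEL5 was 2.34 (2.18 to 2.52) times CEL3.

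BFN1 ranked after ENDO5 (59.6 RPKM) among the 4 nucleases of its type that were matched, at 0.489 (0.472 to 0.507) times its level. ENDO4 had 6.35 RPKM and ENDO3 had 1.37 RPKM. ENDO2 was not analysed here, since no listed name was matched to it.

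BFN1 is also one of a group of genes that mark developmental cell death in several plant tissues, xylem vessels included. The list set beside it held 9 other genes, among them the NAC factor genes ANAC046 and ANAC087. All 9 had RPKM > 1, as did 68.5% of protein-coding genes. Their median was 19.1 RPKM, the value of ANAC087, beside 2.21 RPKM over all listed genes. The median was 4.88 RPKM over protein-coding genes and 10.5 RPKM over genes above 1. BFN1 ranked 4 among the 10. SCPL48, a carboxypeptidase-like gene, had 135.1 RPKM, RNS3, a ribonuclease gene, had 39.3 RPKM and MC9, a metacaspase gene, had 37.2 RPKM. The lowest were PASPA3, an aspartic protease gene, at 9.70 RPKM and CEP1, a cysteine endopeptidase gene, at 9.39 RPKM. ANAC046 (21.6 RPKM) and ANAC087 (19.1 RPKM), NAC factors that act in the death of cap cells, were both listed above SMB. Vascular markers were listed as well, with CESA7, a cellulose synthase of vessel walls, at 9.93 RPKM, and the part of vessels in the level of BFN1 was not tested.

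The lists of genes that act around the 7 members are read against the 68.5% of protein-coding genes that passed 1 RPKM. Of 10 regulators of the cap stem cells and their niche, 9 had RPKM > 1, with a median of 4.81 RPKM. ARF16 (17.1 RPKM) and ARF10 (15.7 RPKM), auxin response factors of the columella, were the highest. WOX5, the factor of the quiescent center, had 3.09 RPKM, above FEZ. CLE40, the peptide gene that limits columella stem cells, had 0.0351 RPKM, a value that rests on about 1 read. Of 9 genes of gravity sensing, 7 had RPKM > 1, a share near that background, with a median of 10.6 RPKM. ADG1, a gene of starch synthesis, had 30.9 RPKM and the auxin carrier gene PIN3 had 21.7 RPKM. LAZY2 and LAZY3, genes of gravity signalling, were below the level at 0.332 RPKM and 0.455 RPKM.

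The list of cap cell release held 7 genes, all with RPKM > 1, beside 68.5% of protein-coding genes. Its median was 12.4 RPKM, beside 10.5 RPKM over genes above 1. QUA1, a pectin synthesis gene, had 70.0 RPKM and NLP7, a nitrate-response factor that acts on CEL5, had 22.5 RPKM. IDL1, a peptide gene of cap shedding, had 12.4 RPKM and its receptor gene HSL2 had 5.29 RPKM. The 5 genes of the root cap cuticle all had RPKM > 1, beside the same 68.5%, with a median of 2.28 RPKM. The highest was GPAT4, an acyltransferase gene of cutin synthesis, at 36.2 RPKM.

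**Figure D4:**
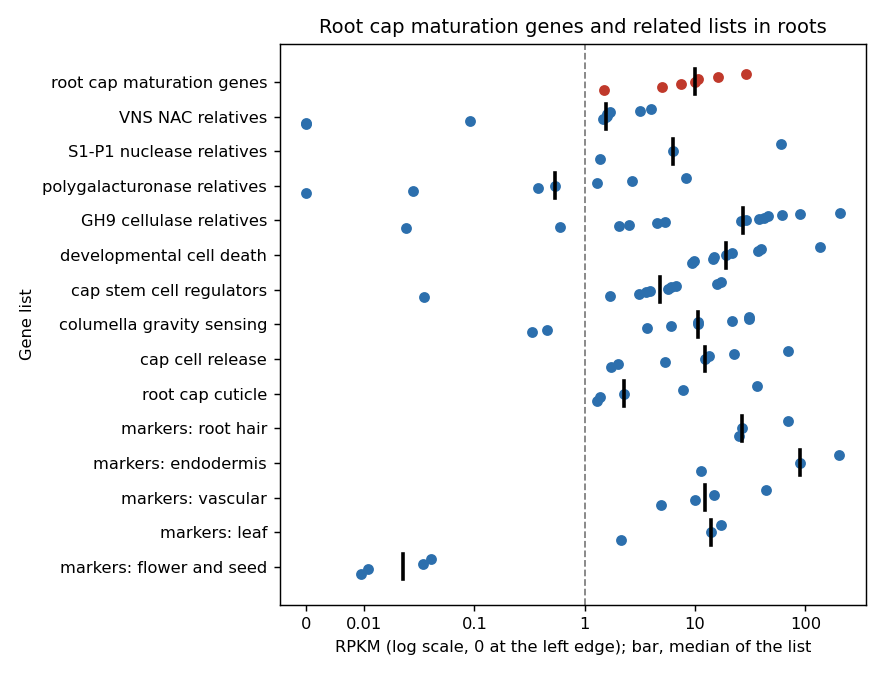
Levels of the 7 root cap maturation genes (top row) and of the related and marker lists, in RPKM on a log scale with genes listed at 0 at the left edge. Points are genes, bars are list medians and the dashed line marks 1 RPKM. The members lie between 1.49 and 29.1 RPKM, with 10.1 as their median.

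Markers of other tissues put these levels in context. Root hair markers (EXPA7, COBL9 and RHD6) were listed between 24.9 and 69.0 RPKM, and endodermis markers (CASP1, CASP2 and SCR) between 11.4 and 203.3 RPKM. The 4 vascular markers lay between 4.92 and 44.0 RPKM. Of the leaf genes, RBCS1A had 14.1 RPKM, CAB1 had 17.3 RPKM and LHCB2.1 had 2.12 RPKM. All 3 thus passed 1 RPKM, as did 68.5% of protein-coding genes. Where in the harvested material these leaf genes were expressed was not tested. The flower and seed markers AG, LFY, AP1 and OLEO1 were listed at no more than 0.0401 RPKM.

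No annotated gene overlapped any of the 7 members in TAIR10.1. Whether reads were counted by strand is not given in the sources used here. Of the 13 nearest neighbours that were listed, 5 had a higher level than the member beside them. FEZ lay 182 bp from AT1G26880, a ribosomal protein gene on the opposite strand with 152.4 RPKM, and the part of that gene in the level of FEZ was not tested. RCPG lay 50 bp from AT1G65560, on the same strand, at 7.30 RPKM. BFN1 lay 30 bp from the noncoding gene AT1G11185, on the opposite strand, at 19.2 RPKM. BRN1 lay 133 bp from AT1G33290, on the same strand, at 3.32 RPKM. The nearest neighbours of SMB, BRN2 and CEL5 were 601 bp or more away.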

How the data were processed

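RNA of 14-day-old roots was sequenced in 3 libraries with 61-base single-end reads. The submitters' processing notes name STAR, HTSeq, edgeR and TAIR10, while the paper's methods name TopHat2 in a passage that also covers leaf data. Versions are not given in the sources used here. The deposited RPKM values, which the authors computed from gene counts, form 1 column, and how the libraries were combined is not stated.

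The spacing of low values in genes with 1 transcript gave about 119000000 reads. Of 3643 values under 12 reads, 72.7% fell within 0.05 of a whole read, against 10% by chance. The method was tested on simulated single sets of counts. There it had to recover the true size with nearly all values whole, a share above the 72.7% found here. Those values were whole reads by construction, so the test covered the search for the size and not errors in the annotated lengths. A simulated mean of 3 libraries was also run, with no such requirement. Reads per gene and exact 95% intervals (Poisson for levels, conditional binomial for ratios) rest on this size and on reads taken as 1 pool. They also rest on annotated exon lengths, with 1 base taken off each merged exon. The longest transcript and coding lengths were used whole.

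Names were matched to TAIR10.1 (RefSeq, also the source of all sequences) for 32672 of 33446 names (97.7%). The members and lists were chosen with earlier results of these data known. The genes named were the members, their listed relatives, pathway genes and markers, their neighbours and the NAC genes next in rank or highest. Ratios to relatives, the loci of shared names and the upstream alignment were added after values were seen. Alternatives changed the expression threshold, the background, the scaling, the gene length and the library size. Python 3.11.15, numpy 2.4.6, pandas 2.3.3, scipy 1.17.1, Biopython 1.88 and matplotlib 3.10.9 were used.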

Additional observations from a re-analysis of the deposited data

How the results depend on the processing

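No paired analysis was possible because there is a single condition with 1 column of values, and for the same reason no library could be left out. All 7 members passed 0.5 RPKM, beside 59.6% of listed genes. At 2 RPKM 6 passed, beside 50.9% of listed genes, with FEZ below it. Rescaling to TPM multiplied every value by 1.64 and left each ratio as it was. No member above 1 RPKM could therefore fall below 1 TPM, and this setting is no check of the count. With the coding length, the ratio was 7.88 for SMB to FEZ, 1.24 for RCPG to CEL5, 2.04 for BFN1 to RCPG and 2.52 for BFN1 to CEL5, each outside its counting interval and in the same direction. The ratio of BRN1 to BRN2 stayed within its interval (1.91 with the coding length and 1.92 with the longest transcript). With a library size 3 times smaller, the counting error of FEZ was 10.7% in place of 6.15%, and that of BFN1 was 2.62% in place of 1.51%.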
